A study of Mus musculus with 10 samples.

Results

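The genes described here encode the epithelial basement membrane and its laminin receptor in cultured mouse molars. They are 9 genes of the 18381 in the deposited table, chosen by name with earlier results of these data known. Lama3 and Lamb3 encode the alpha 3 and beta 3 chains of laminin-332. Lama5, Lamb1 and Lamc1 encode chains of other laminins, Itga6 and Itgb4 the subunits of integrin alpha 6 beta 4, and Nid1 and Hspg2 the linker proteins nidogen-1 and perlecan. All 9 were found in the table, and all 9 passed the filter on low counts, with 237 counts or more in every sample.

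A basement membrane is the thin sheet of extracellular matrix on which an epithelium rests. Laminins are its main polymer, each built of an alpha, a beta and a gamma chain, and nidogens and perlecan tie the laminin network to a network of type IV collagen. Laminin-332 is bound by integrin alpha 6 beta 4, which with collagen XVII, dystonin and plectin forms the hemidesmosome, the junction that anchors basal epithelial cells to the matrix and to their keratin filaments. Laminin-511 (alpha 5, beta 1, gamma 1) is the widespread laminin of embryonic epithelia. In the tooth, the basement membrane separates the dental epithelium from the mesenchyme, and defects of laminin-332 or of the hemidesmosome are known to disturb enamel.

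First lower molars were taken from wild type C57BL/6JOlaHsd mouse embryos at embryonic day 14 and kept in hanging drops for 6 h. Of each of 5 embryos, numbered 1, 2, 3, 4 and 6, a tooth received recombinant mouse insulin-like growth factor 1 (IGF1) at 750 ng/ml and the other tooth the vehicle alone, phosphate-buffered saline with bovine serum albumin, which the IGF1 medium also held. Sides were balanced, and every tooth was a library of its own, so there were 5 IGF1 and 5 control samples. The control libraries held 2845773 to 8403151 counts and the IGF1 libraries 3456634 to 8763113, and embryo 1 had the smallest library in each group. Levels are given as CPM, the usual count of a gene relative to the size of its library, with library sizes scaled by the trimmed mean of M-values (TMM). Changes are log2 fold changes of IGF1 over control from edgeR's quasi-likelihood test with embryo as a block, adjusted by Benjamini-Hochberg over 14504 genes, with a gene called at an adjusted p under 0.05.

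Lamb3, Lamb1 and Itgb4 were lower in the IGF1 teeth, and none of the 9 genes was called higher. By this test, 4.76% of all genes tested were called lower, 6.72% higher and 11.5% in either direction. The median change of the 9 genes was -0.18, against -0.0038 over all genes tested. Of the 9, 7 had values below 0, as had 7333 of the 14504 genes tested. Lamb3 changed most, by -0.79 on the log2 scale, followed by Itgb4 (-0.50) and Lamb1 (-0.29). At an unadjusted p under 0.05 the count was 5 lower and 0 higher, against 12.2% and 14.3% of all genes tested, and DESeq2 and limma-voom each called 3 of the 9, again 0 of them higher. The count of 3 fell to 1, Lamb3, when embryo 1 or embryo 4 was left out. Without the embryo block 2 of the 9 were called, Lamb3 and Itgb4, where 2.28% of all genes were called lower. Lamb3, Lamb1, Itgb4 and Nid1, 4 of the 9, were lower in all 5 embryos, as were 11.2% of all genes tested. In 2 of the 9, Lamb1 and Nid1, every IGF1 tooth lay below every control tooth, a separation found in 3.03% of all genes tested, and 0 of the 9 showed the reverse, found in 4.21%.

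**Figure D1:**
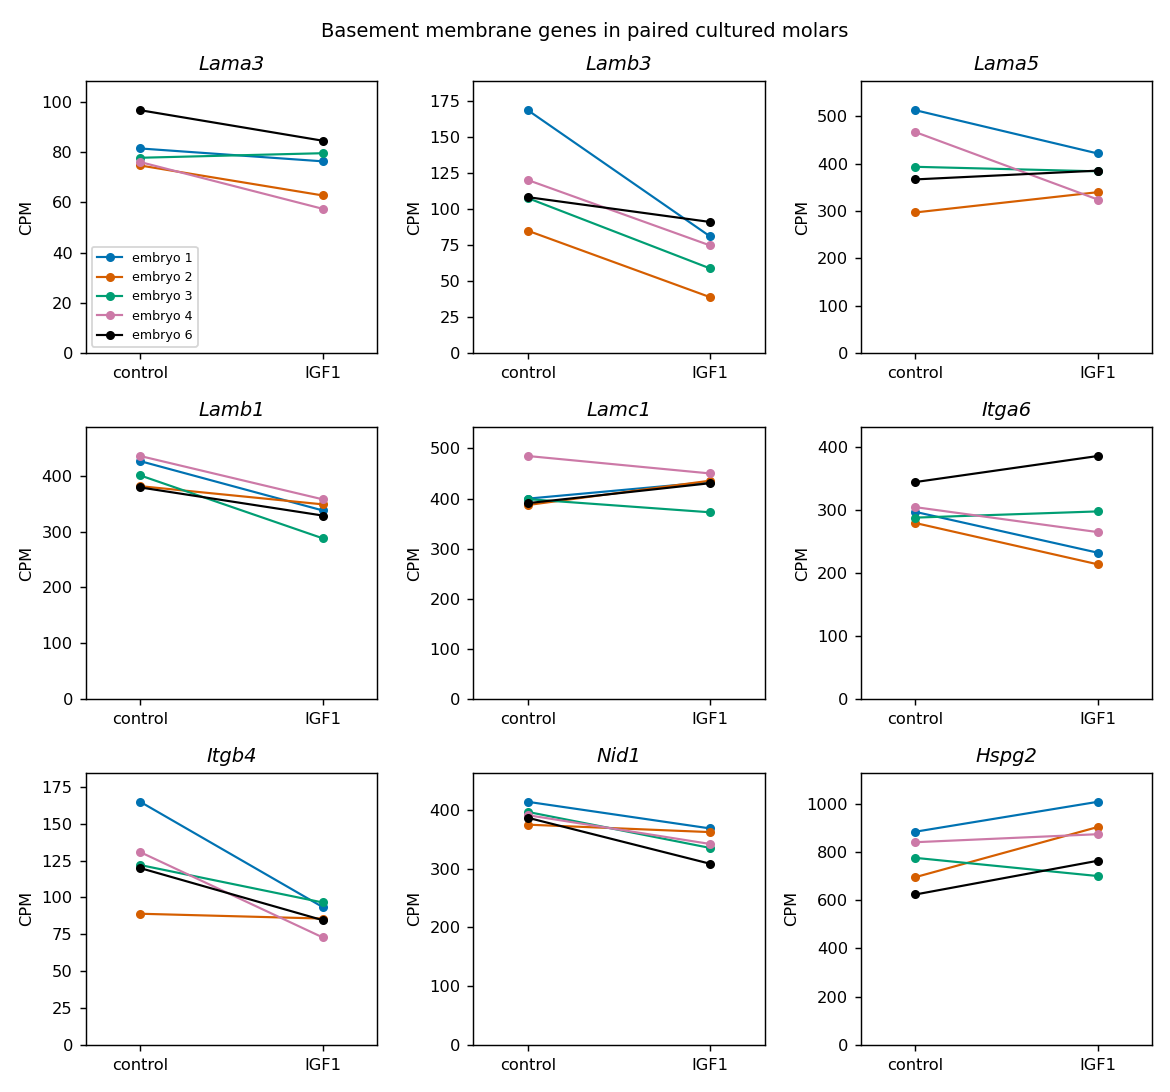
Level of each of the 9 genes (vertical axis, CPM, starting at 0) in the control and the IGF1 tooth of each embryo, with a line joining the teeth of an embryo. The lines of Lamb3, Lamb1, Itgb4 and Nid1 fall in all 5 embryos, while those of Lama3, Lama5, Lamc1, Itga6 and Hspg2 run in both directions.

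Levels of different genes were compared per length, as CPM per kilobase of annotated exon. In the control teeth, Nid1 stood first with a median of 56.3 CPM per kb, followed by Hspg2 (54.2) and Lamc1 (48.2), and the ranges of these neighbours over the 5 teeth overlapped. Lamb1 (40.4), Lama5 (34.5) and Itga6 (32.9) formed the next group, together with Lamb2 (34.2) and Lama4 (31.0), which are not among the 9. Itgb4 (17.4) and Lamb3 (16.4) lay below them, and their ranges did not reach those of the group above. Lama3 was the lowest of the 9 at 7.23 CPM per kb, with a range of 6.95 to 8.99 that lay below that of Lamb3, 12.8 to 25.5.

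In every control tooth, Lama3 was measured at a lower level per length than Lama5, and Lamb3 at a lower level than Lamb1. Per length, Lama5 exceeded Lama3 by a factor of 4.77 ± 1.10 (SD, n = 5) and Lamb1 exceeded Lamb3 by 2.38 ± 0.47. The order depends on the gene model. With the longest coding transcript in place of all exons, Lamb1 came first and Itga6 second, Lamb3 (median 22.2) came before Itgb4 (19.7), and Lamb1 exceeded Lamb3 by 3.01 ± 0.59. The ranges of Lamb3 and Itgb4 then reached up to 34.6 and 26.6 CPM per kb and overlapped that of Lama5, which began at 26.1.

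**Figure D2:**
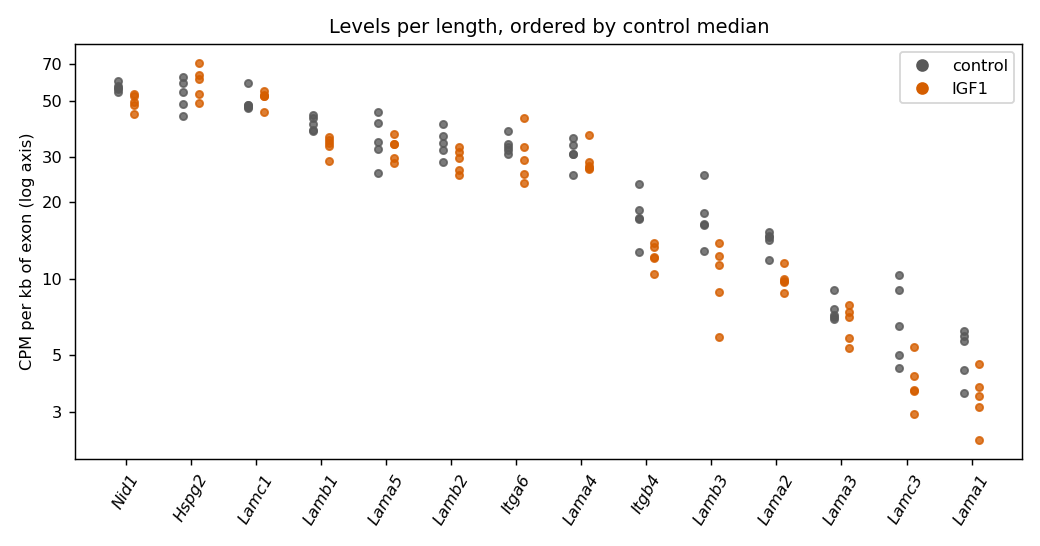
Level per length (vertical axis, CPM per kb of exon, log axis) of the 9 genes and of further laminin chain genes, ordered by the control median, with a point for each tooth. Nid1, Hspg2 and Lamc1 lie highest, and Lama3, Lamc3 and Lama1 lowest, in both groups of teeth.

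Lamb3 (ENSMUSG00000026639) lies on chromosome 1 from 193207699 to 193343878 on the plus strand (GRCm38, GENCODE M21). Its beta chain partner in the comparison, Lamb1 (ENSMUSG00000002900), lies on chromosome 12 from 31265234 to 31329644, also on the plus strand. Since these genes encode chains of the same type and were both called, the bases before their start sites are shown. Those of Lama5 (ENSMUSG00000015647, chromosome 2, 180176373 to 180225859, minus strand), an alpha chain gene that was not called, are shown with them. The sequences are from RefSeq's promoter table (GRCm38.p6), which matched 5 of the 9 genes, and are printed 5′ to 3′ on the gene's strand up to the first annotated exon, with capitals marking the GC box GGGCGG or its reverse complement CCGCCC. The stretch before Lamb3, the upstream of its 2 listed start sites, falls within the long Lamb3 gene model of GENCODE and outside its exons.
Lamb3 (chr1:193301744-193301992, plus strand): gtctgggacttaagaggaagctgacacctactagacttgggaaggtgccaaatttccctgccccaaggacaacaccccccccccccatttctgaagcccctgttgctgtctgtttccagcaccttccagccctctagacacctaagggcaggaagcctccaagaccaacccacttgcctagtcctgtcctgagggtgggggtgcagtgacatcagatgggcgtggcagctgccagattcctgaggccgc
Lamb1 (chr12:31265043-31265233, plus strand): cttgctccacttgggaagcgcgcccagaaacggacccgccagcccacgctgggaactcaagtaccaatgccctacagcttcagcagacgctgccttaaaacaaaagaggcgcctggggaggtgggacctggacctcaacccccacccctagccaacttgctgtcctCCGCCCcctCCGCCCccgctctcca
Lama5 (chr2:180225860-180226109, minus strand): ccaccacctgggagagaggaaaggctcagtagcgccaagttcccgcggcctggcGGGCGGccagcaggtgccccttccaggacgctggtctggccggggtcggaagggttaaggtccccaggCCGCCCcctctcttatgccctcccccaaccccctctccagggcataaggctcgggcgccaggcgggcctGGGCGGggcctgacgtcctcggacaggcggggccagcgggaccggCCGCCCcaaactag

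In the 250 bases before the start site, the GC box occurred 0 times at Lamb3, 2 times at Lamb1 and 4 times at Lama5. Nid1 had 1 such match and Hspg2 5. Of 32851 windows of the same length in the table, 32.7% held this motif on either strand. Lamb3 had 2 CpG dinucleotides in its window, Lamb1 14 and Lama5 19, and the median over all windows was 6. The remaining motifs were also searched on both strands. The letters TGANTCA, which AP-1 factors bind, were held by 6.75% of all windows. The forkhead letters TGTTTAC were held by 3.17% of them. A TATA box, spelled TATAAA in this search, was held by 12.4%. None of these was found in the windows of the 5 genes, which says only that these letters are not there.

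Lamb3, which encodes the beta 3 chain found only in laminin-332, was lower with IGF1 in all 5 embryos. In the control teeth of embryos 1, 2, 3, 4 and 6 it stood at 168, 84.9, 107, 120.0 and 108 CPM. In the IGF1 teeth of the same embryos it stood at 80.9, 38.9, 58.8, 74.7 and 90.9 CPM. The groups overlapped, because the IGF1 tooth of embryo 6 lay above the control tooth of embryo 2, but within each embryo the IGF1 tooth was lower. The means were 118 ± 31.0 and 68.8 ± 20.4 CPM (SD, n = 5), and the log2 fold change was -0.79 ± 0.12 (SE, 95% interval -1.04 to -0.53, edgeR adjusted p = 0.00174), so that the level fell by 42.1%. Embryo 6 showed the smallest difference, -0.25 on the log2 scale, and embryos 1 and 2 the largest, -1.06 and -1.13. The call held in all 11 alternatives, including each left-out embryo, with adjusted p from 2.39e-08 to 0.0466, the highest being that of the fit without the embryo block.

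Lama3 (ENSMUSG00000024421, chromosome 18) encodes the alpha 3 chain, which carries the integrin-binding part of laminin-332. It stood at 81.4, 74.7, 77.7, 76.0 and 96.6 CPM in the control teeth of embryos 1, 2, 3, 4 and 6, and at 76.3, 62.8, 79.5, 57.4 and 84.5 CPM in their IGF1 teeth. The IGF1 tooth was the lower in 4 of 5 embryos, with embryo 3 as the exception, and the groups overlapped. The log2 fold change of -0.18 ± 0.08 (SE, 95% interval -0.36 to -0.01) did not pass the test (edgeR adjusted p = 0.174), and it was not called in any of the alternatives. Its interval leaves room for a fall up to 0.36 on the log2 scale, and the upper bound of Lamb3 was -0.53. Whether Lama3 and Lamb3 differed in their change was not tested.

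Lamb1 encodes the beta 1 chain, shared by many laminins of embryonic tissue. It stood at 426, 381, 400.4, 435 and 379 CPM in the control teeth of embryos 1, 2, 3, 4 and 6, and at 338, 349, 288, 358 and 329 CPM in the IGF1 teeth. Every IGF1 tooth lay below every control tooth. The means were 404 ± 25.6 and 332.1 ± 27.0 CPM (SD, n = 5), and the log2 fold change was -0.29 ± 0.07 (SE, 95% interval -0.44 to -0.13, edgeR adjusted p = 0.0224). The size was similar under each alternative, but the adjusted p was 0.0560 without the embryo block and 0.0793, 0.0784 and 0.0523 without embryos 1, 4 and 6.

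Lama5, the alpha 5 chain gene of laminin-511, was called neither lower nor higher. Its control values were 513, 297, 393, 466 and 367 CPM for embryos 1, 2, 3, 4 and 6, and its IGF1 values 421, 339.7, 384, 324 and 385 CPM. The groups overlapped and the embryos differed in direction, 3 lower and 2 higher with IGF1. The log2 fold change was -0.11 ± 0.10 (SE, 95% interval -0.33 to 0.10, edgeR adjusted p = 0.507). Its size depended on single embryos, being -0.19 without embryo 2 and -0.01 without embryo 4, and it was not called in either fit.

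Lamc1 (ENSMUSG00000026478, chromosome 1, 153218922 to 153332786, minus strand) encodes the gamma 1 chain, the partner of most alpha and beta chains. Lamc1 stood at 399.9, 387, 399, 485 and 391 CPM in the control teeth of embryos 1, 2, 3, 4 and 6 and at 433, 436, 373, 450.1 and 431 CPM in the IGF1 teeth. It was higher with IGF1 in 3 embryos and lower in 2, with a log2 fold change of 0.04 ± 0.07 (SE, 95% interval -0.11 to 0.20, edgeR adjusted p = 0.741). This change was 0.01 without embryo 2 and 0.08 without embryo 4, uncalled in both fits. The control tooth of embryo 4 and the IGF1 tooth of embryo 3 stood apart from the other 4 of their groups.

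To compare laminin-332 with the other chains within each tooth, the log2 ratio of CPM was taken between chains of a type, which does not depend on the scaling of the library. The Lamb3 to Lamb1 ratio fell from -1.81 ± 0.30 in the control teeth to -2.33 ± 0.50 in the IGF1 teeth (SD, n = 5). Within embryos 1, 2, 3, 4 and 6 the difference was -0.72, -0.998, -0.40, -0.40 and -0.04, so that the mean difference was -0.51 ± 0.36 (SD). All 5 embryos were lower, and the exact two-sided sign-flip permutation test over embryos gave p = 0.063, the smallest that 5 embryos allow, or 0.1875 adjusted over the 3 ratios tested. With 5 embryos this test cannot give a p under 0.05.

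The Lama3 to Lama5 ratio differed by -0.07 ± 0.27 (SD) and was lower with IGF1 in 2 of 5 embryos (exact permutation p = 0.625), and its mean turned to 0.029 without embryo 2. The ratio of the beta chains moved the same way in every embryo, and that of the alpha chains did not. Whether these ratios differed from each other in their change was not tested.

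**Figure D3:**
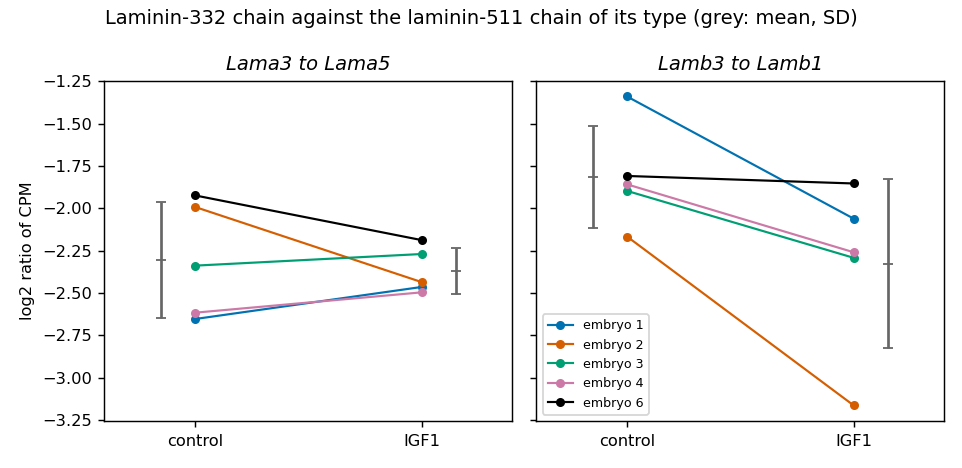
Log2 ratio of CPM (vertical axis) between the alpha and beta chain genes of laminin-332 and the laminin-511 chain genes of their type in the control and IGF1 tooth of each embryo, with lines joining the teeth of an embryo and grey bars for the mean and SD of 5 teeth. The Lamb3 to Lamb1 ratio is lower with IGF1 in all 5 embryos and the Lama3 to Lama5 ratio in 2.

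Itgb4 (ENSMUSG00000020758, chromosome 11, 115974709 to 116008412, plus strand) encodes the beta 4 integrin, whose long cytoplasmic tail recruits plectin to the hemidesmosome. It stood at 165, 89.0, 122, 131 and 120.0 CPM in the control teeth of embryos 1, 2, 3, 4 and 6. The IGF1 teeth stood at 93.6, 85.7, 96.6, 73.0 and 84.7 CPM. All 5 IGF1 teeth were lower than their partners, and only the low control tooth of embryo 2 made the groups overlap. The means were 125 ± 27.2 and 86.7 ± 9.22 CPM (SD, n = 5), and the log2 fold change was -0.50 ± 0.11 (SE, 95% interval -0.75 to -0.26, edgeR adjusted p = 0.0144), so that the level fell by 29.5%. The call was lost without embryo 1 (-0.43, adjusted p = 0.0552) and without embryo 4 (-0.42, adjusted p = 0.0640), the embryos with the largest differences, -0.82 and -0.84.

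Itga6 (ENSMUSG00000027111, chromosome 2, 71745616 to 71858416, plus strand) encodes the alpha 6 integrin, which pairs with beta 4 and also with beta 1. Its control values were 297, 279, 288, 305 and 345 CPM and its IGF1 values 232, 214, 298, 265 and 386 CPM for embryos 1, 2, 3, 4 and 6. The IGF1 teeth spread more widely than the control teeth, with an SD of 67.8 against 25.2 CPM, and 3 of 5 embryos were lower. The log2 fold change was -0.14 ± 0.09 (SE, 95% interval -0.34 to 0.05, edgeR adjusted p = 0.342). This change was -0.08 without embryo 2 and -0.22 without embryo 6, uncalled in both fits. The 2 subunits of the receptor gave different calls, but the difference between them was not tested.

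Of the other hemidesmosome genes in the wider list, edgeR called 2 of 4 lower, where 4.76% of all genes tested were called lower, and 0 higher, with 1 higher (Cd151) at an unadjusted p under 0.05, a threshold that 14.3% of all genes tested passed as higher. Dst encodes dystonin, which links keratin filaments to the plaque in epithelia and also has neuronal and muscle isoforms that gene counts do not separate. It stood between 1057 and 1228 CPM in the 5 control teeth (median 1128) and between 745 and 790.3 CPM in the 5 IGF1 teeth (median 776), with no overlap (log2 fold change -0.55 ± 0.07 SE, edgeR adjusted p = 0.00056). Col17a1, the transmembrane collagen of the hemidesmosome, stood at 182 to 244 CPM in the control teeth and at 116 to 157 CPM in the IGF1 teeth (-0.54 ± 0.09 SE, edgeR adjusted p = 0.0032). Both genes were separated completely between the groups, as 3.03% of all genes tested were in this direction, and both calls held in all 11 alternatives. Plec (-0.15 ± 0.08 SE, edgeR adjusted p = 0.302) and Cd151 (0.25 ± 0.10, adjusted p = 0.133) did not pass. The wider list was written with earlier results of these data known, so counts over its genes only describe it.

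Nid1 (ENSMUSG00000005397, chromosome 13, 13437551 to 13512269, plus strand) encodes nidogen-1, which binds the laminin gamma 1 chain. It stood at 414, 375, 396, 391 and 387 CPM in the control teeth of embryos 1, 2, 3, 4 and 6 and at 368, 362, 335, 342 and 308 CPM in the IGF1 teeth. The groups did not overlap, yet the log2 fold change of -0.20 ± 0.06 (SE, 95% interval -0.34 to -0.05) did not pass the test (edgeR adjusted p = 0.0779, and 0.0654 to 0.238 over the alternatives).

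Hspg2 (ENSMUSG00000028763, chromosome 4, 137468769 to 137570630, plus strand) encodes perlecan, the large heparan sulfate proteoglycan of the basement membrane. It stood at 884, 696, 775, 840.4 and 624 CPM in the control teeth of embryos 1, 2, 3, 4 and 6 and at 1008, 903, 700.1, 874 and 763 CPM in the IGF1 teeth. The IGF1 tooth was the higher in 4 of 5 embryos, and the groups overlapped. The log2 fold change was 0.15 ± 0.08 (SE, 95% interval -0.03 to 0.34, edgeR adjusted p = 0.273). This change was 0.10 without embryo 2 and 0.22 without embryo 3, uncalled in both fits. The linkers of the wider list, Nid2 (0.22 ± 0.09 SE, adjusted p = 0.15) and Agrn (-0.04 ± 0.06 SE, adjusted p = 0.71), did not pass either.

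The wider list held 33 further basement membrane genes, of which 32 were in the table and 31 were tested. Of these, 8 were lower and 1 was higher, against backgrounds of 4.76% lower and 6.72% higher among all genes tested. The median change was -0.09. The list was written with earlier results of these data known, so these shares describe it and do not test it. Among the 5 further laminin chains outside laminin-332, 3 were lower. All 5 had values below 0, as had 7333 of the 14504 genes tested. Lamc3 (gamma 3) stood at 27.2 to 63.2 CPM in the control teeth and at 17.9 to 33.0 CPM in the IGF1 teeth (log2 fold change -0.78 ± 0.12 SE, edgeR adjusted p = 0.00273). Lama1, the alpha chain of the earliest embryonic laminin, changed by -0.56 ± 0.11 (SE, edgeR adjusted p = 0.00675), with 0.0943 when the embryo block was left out. Lama2, the alpha chain best known from muscle and peripheral nerve, went from 193 to 248 CPM in the control teeth to 143 to 189 CPM in the IGF1 teeth without overlap (-0.50 ± 0.08 SE, edgeR adjusted p = 0.0032). Lower values were therefore not limited to laminin-332, and Lamc3 and Lamb3 changed by nearly the same amount.

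Laminin receptors other than the integrin pair moved in both directions. Bcam, a laminin alpha 5 receptor of the immunoglobulin family, was lower in all 5 embryos (68.2 to 133 CPM in the control teeth, 44.1 to 74.6 CPM in the IGF1 teeth, log2 fold change -0.63 ± 0.08 SE, edgeR adjusted p = 0.000929). Dag1, which encodes dystroglycan, was higher in all 5 (124 to 172 CPM against 167 to 238 CPM, 0.50 ± 0.08 SE, edgeR adjusted p = 0.00383). It was the only gene of both lists called higher. The integrin genes Itga3, Itgb1, Itga2 and Itga7 did not pass by edgeR. Of these, Itga3 (-0.26 ± 0.09 SE, edgeR adjusted p = 0.0912) was called lower in 1 of 11 alternatives.

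Frem1 and Frem2, which encode matrix proteins that hold epithelium and mesenchyme together in the embryo, were lower by -0.45 ± 0.06 and -0.38 ± 0.07 on the log2 scale (SE, edgeR adjusted p = 0.00161 and 0.00672). Fras1, their partner in the same complex, had a change of -0.02 ± 0.06 (adjusted p = 0.865). Of the collagen network genes tested, Col4a1, Col4a2, Col4a5, Col4a6, Col18a1 and the cross-linking peroxidase Pxdn, edgeR called 0 of 6, where 11.5% of all genes tested were called, with 0 at an unadjusted p under 0.05 and 0 in every alternative, DESeq2 included. Their log2 fold changes lay between -0.18 and -0.03. With 6 genes, a count of 0 does not set them apart from all genes.

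**Figure D4:**
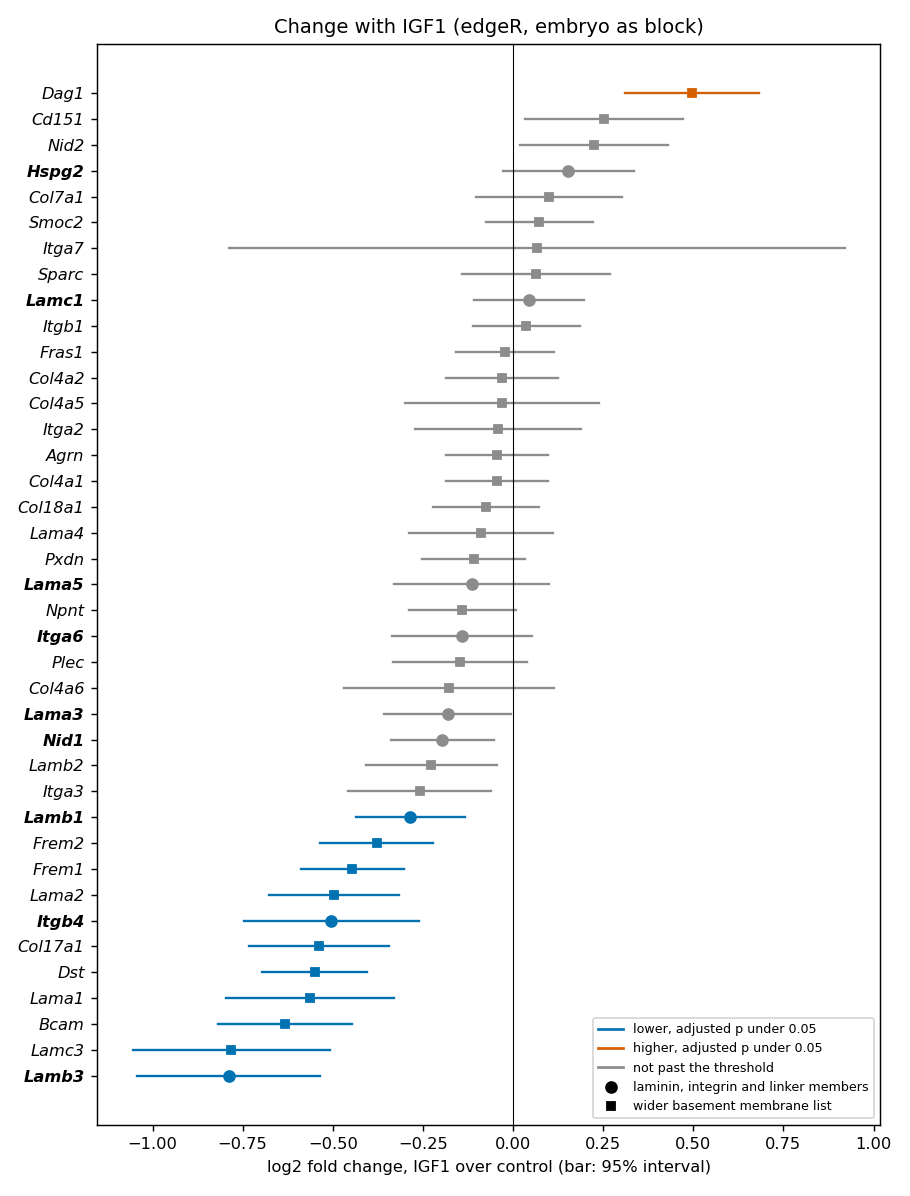
Log2 fold change of IGF1 over control (horizontal axis) with its 95% interval for the 9 genes (circles, bold names) and genes of the wider list (squares), coloured by the edgeR call. Lamb3 and Lamc3 lie lowest near -0.79 and -0.78, and Dag1, at 0.50, is the only gene called higher.

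The teeth hold both epithelium and mesenchyme, and in such bulk samples fewer cells of a type and less RNA per cell cannot be told apart. All 22 epithelial markers were tested, among them Epcam, Cdh1 and Krt14, so epithelium was present in the teeth. The counts of each marker list are to be read against the 4.76% of all genes tested that were called lower and the 6.72% called higher, and at an unadjusted p under 0.05 against 12.2% and 14.3%. Of the epithelial markers, 1 was higher (Krt5, called in 9 of 11 alternatives) and 1 lower (Cdh3, in 4 of 11), with 4 higher and 2 lower at an unadjusted p under 0.05 and a median change of 0.04, and their summed level ran from 3633 to 5348 CPM in the control teeth and from 4016 to 5446 CPM in the IGF1 teeth. The median change of the epithelial markers was -0.14, 0.12, 0.32, -0.13 and 0.23 in embryos 1, 2, 3, 4 and 6. It was above 0 in embryos 2, 3 and 6. Taken against this median in each embryo, Lamb3 differed by -0.88 ± 0.35 and Itgb4 by -0.59 ± 0.24 (SD, n = 5), below 0 in 5 of 5 embryos each. Lamb1 (-0.36 ± 0.26) and the uncalled Nid1 (-0.27 ± 0.26) and Itga6 (-0.22 ± 0.18) were also below 0 in 5 of 5. Without this reference, Itga6 was lower in 3 of 5. Lama3 (-0.26 ± 0.18) and Lama5 (-0.19 ± 0.19) were below 0 in 4 of 5, Lamc1 (-0.03 ± 0.25) in 2 of 5 and Hspg2 (0.07 ± 0.32) in 1 of 5. What part the share of epithelium in each tooth has in these values was not tested.

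The 14 mesenchymal markers gave 2 lower (Pdgfra, called in all 11 alternatives, and Pdgfrb, in 7 of 11) and 0 higher by edgeR. At an unadjusted p under 0.05 they gave 3 lower and 1 higher. They summed to between 9489 and 10936 CPM in the control teeth and between 8728 and 11208 CPM in the IGF1 teeth. The median change of the mesenchymal markers was 0.05, -0.16, -0.26, 0.01 and -0.25 in embryos 1, 2, 3, 4 and 6. In each embryo its sign was opposite to that of the epithelial median. Differences taken against the epithelial median alone hold this shift too. Of 10 endothelial markers 2 were lower (Cdh5, called in 8 of 11 alternatives, and Esam, in 4 of 11), while Flt1 was measured higher in 5 of 5 embryos without passing the test (0.46 ± 0.14 SE, edgeR adjusted p = 0.0506, called in 3 of 11 alternatives). At an unadjusted p under 0.05 there were 5 lower and 1 higher. The sum of the 10 was lower with IGF1 in 5 of 5 embryos (447 to 505 CPM in the control teeth, 368 to 473 CPM in the IGF1 teeth). Of 8 immune markers 7 were tested and 1 was lower (Csf1r, called in 6 of 11 alternatives), with 2 lower and 0 higher at an unadjusted p under 0.05, and their sum was also lower in 5 of 5 embryos (61.0 to 87.4 CPM against 49.3 to 78.3 CPM). Vessels carry Lama4, Lamb1, Lamc1, Nid1, Hspg2 and Itga6 as well, and the part of these cells in the lower values of Lamb1 and Nid1 was not tested. Glial markers summed to 73.8 to 96.5 CPM in the control teeth and 69.8 to 80.8 CPM in the IGF1 teeth, with 4 of 6 below 1 CPM on average. Skeletal muscle markers summed to 25.6 to 103 CPM and 14.7 to 132 CPM, with 2 of 6 below 1 CPM. No marker of these lists was at 0 in all teeth.

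**Figure D5:**
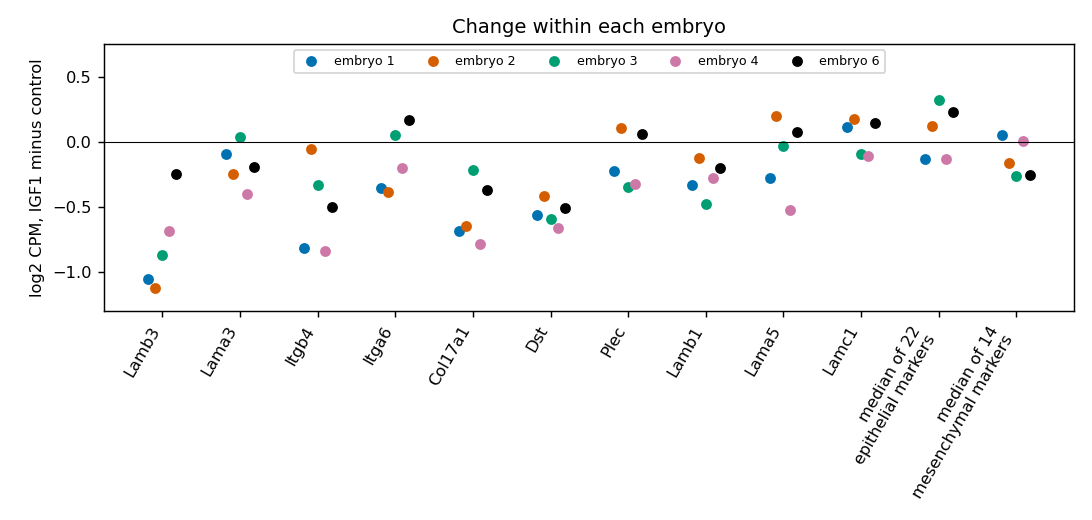
Difference in log2 CPM, IGF1 minus control, within each embryo (vertical axis, 1 point per embryo) for laminin-332, hemidesmosome and laminin-511 genes, and the median difference over 22 epithelial and 14 mesenchymal markers. Lamb3, Itgb4, Col17a1, Dst and Lamb1 lie below 0 in all 5 embryos. The epithelial median lies above 0 in embryos 2, 3 and 6, and the mesenchymal median in embryos 1 and 4.

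Over the 10 teeth, the 9 genes did not vary as a block. Pearson's r of log2 CPM, given as a description over teeth that share embryos and treatments, was highest for Lamb1 with Nid1 (0.806), Lama5 with Itgb4 (0.786), Itgb4 with Nid1 (0.783) and Lamb3 with Itgb4 (0.759). Lama3 went most with Itga6 (0.700) and less with Lamb3 (0.541). Hspg2 ran against Itga6 (-0.648) and Lama3 (-0.571) and went with Lamc1 (0.616). Among 11406 genes outside the lists with a mean of 50 counts or more, those most like Lamb3 were Xpc (r = 0.979), Exosc5 (0.9747) and Eppk1 (0.973), where Eppk1 encodes epiplakin, a keratin-binding relative of plectin. Those most like Itgb4 were Magi1 (0.967), Maml3 (0.954) and Fam43a (0.936), and those most like Lama3 were Msx1 (0.922), Tfap2c (0.909) and Thsd7a (0.897). For the other 6 genes the 3 closest had r between 0.910 and 0.977. Taken as the highest of so many genes over 10 teeth, such values of r are high by selection.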

How the data were processed

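The deposited table gives estimated counts for each gene, not normalized, from Salmon 0.99.0. FastQC 0.11.8, Trimmomatic 0.39, DESeq2 and the GRCm38 build are also named in the submitters' processing notes. The libraries were made with the Ovation Mouse RNAseq System from single teeth. The transcript set and the use of strand are not given in the sources used here. All values in it are whole, so that rounding had no effect. It lists 18381 genes, with row sums from 10 counts upward, of which 18287 were matched to GENCODE M21 and 94 were not.

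Counts were tested with edgeR 4.0.16 (R 4.3.3) after TMM normalization and filterByExpr, with embryo as a replicate block, because both teeth of a number come from the same embryo. The teeth of embryos 1, 2, 3, 4 and 6 deviated from their group means with correlations of 0.319, 0.208, -0.0389, 0.170 and 0.313 within the embryo. The control teeth of embryos 2 and 3 correlated most with the IGF1 teeth of embryos 3 and 4. Those of embryos 1, 4 and 6 correlated most with their own partners. Chi-square values of 4.52 to 18.2 per degree of freedom between replicates show spread beyond sampling noise. The SE of a change is its size divided by the square root of the F statistic. Alternatives used DESeq2 1.42.0, limma 3.58.1, other size factors and filters, no block, and each embryo left out. Chain ratios were compared with exact sign-flip permutation tests in Python 3.11.15. The fitting procedure was tested on simulated data. Sequences were read from RefSeq's table.

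By rule, the genes named were the 9 genes, the called genes of the wider list, and for each of the 9 the 3 most alike by Pearson's r, which are named for Lamb3, Itgb4 and Lama3 and given as a range for the others. Uncalled genes of the wider list and markers were named in addition, after their values were seen, to account for the lists. Some results that fall under the design are not reported here. Members and lists were chosen with earlier results of these data known.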

Additional observations from a re-analysis of the deposited data

Results flagged for a closer look

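Lamc1, which encodes the laminin gamma 1 chain, had a tooth far from the other 4 in each group. The control tooth of embryo 4 stood at 485 CPM against 387 to 399.9 CPM in the others, so that its gap to the nearest took 0.870 of the whole range. The IGF1 tooth of embryo 3 stood at 373 CPM against 431 to 450.1 CPM, with a gap of 0.749 of the range. The limit for 5 samples is 0.71 (Dixon's 95% value). With 36 groups of 5 examined, 1.8 such teeth are expected by chance.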

How the results depend on the processing

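Of 198 refits (18 named genes under 11 alternatives), 191 kept their direction and their side of the threshold, 7 lost the call (Lamb1, Itgb4 and Lama1) and 0 changed sign, with values given beside these genes in the report. Without the replicate block, 887 genes were called in place of 1666 (556 higher and 331 lower, in place of 975 and 691), and 2 of the 9 genes. Leaving out an embryo at a time gave 986 to 1602 genes called, 595 to 924 higher and 383 to 678 lower, and 1 to 3 of the 9 genes, 1 to 3 of them lower. The mean difference of the Lama3 to Lama5 ratio ran from -0.13 to 0.029, being above 0 only without embryo 2. With the longest coding transcript, Lamb1 exceeded Lamb3 per length by a factor of 3.01 in place of 2.38. The causes were not tested. The Lamb3 to Lamb1 ratio kept its direction under each alternative run, and its exact p did not go under 0.05. Embryo 1 had the fewest counts, so its values carry the largest counting error.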
